A study of Pimephales promelas with 80 samples.

Results

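The 20 fathead minnow larvae kept at the 4 lowest doses of 6PPD-quinone (6PPD-Q) were taken as 1 group and set against the 10 control larvae, 30 of the 80 larvae sequenced. They were chosen by their labelled chemical and nominal dose: 5 larvae each at 0.00277, 0.00878, 0.0277 and 0.0878 mg/L. The fathead minnow (Pimephales promelas) is a freshwater fish kept in laboratories to test how toxic chemicals are. Each library held the whole-body RNA of 1 larva after 24 h without food in a sealed well, with DMSO as solvent. The labels put the larvae at 5 days, in one field after hatching and in another after fertilization, so the exact age is uncertain. The controls had neither chemical. Larvae of several crosses had been pooled and sorted at random to the wells, so larvae of a dose are separate animals of a mixed stock. Of the 30, all but 2 controls (replicates 1 and 2, plate A) carry the label of plate C. For comparison, 20 larvae at the 4 upper 6PPD-Q doses (0.277, 0.878, 2.77 and 8.78 mg/L) and 15 larvae at 3 nearly equal doses of the parent chemical 6PPD were used.

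6PPD is an antioxidant added to tire rubber, where it reacts with ozone before the rubber does. One product of that reaction is 6PPD-Q, which washes off roads with storm water. It is acutely lethal to coho salmon at low concentrations, whereas several other fish tolerate far more of it. The study set out to see what 6PPD and its quinone do to gene expression in the minnow. The lowest doses lie under the dose at which the clearest responding gene was known to rise.

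The 30 libraries held 16.2 to 27.4 M counts in genes (M, 10 to the power of 6) and detected 22445 to 23088 genes. The biological coefficient of variation, the spread between larvae beyond counting noise, was 22.8% in controls and 25.6%, 32.9%, 26.8% and 31.3% at the 4 doses in rising order. Replicates 3 and 5 at 0.00878 mg/L stood apart. They had the lowest TMM scaling factors of the 30 (0.884 and 0.898) and the smallest shares of reads outside genes (7.73% and 8.19%, where controls had 9.25% to 11.7%). The gene identifiers of the files are not paired with names, and 0 of 26150 matched the RefSeq table used here. No gene is therefore named by symbol or function, no pathway could be described, and the whole-body label could not be checked against tissue markers. No sequence is shown for the same reason.

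Pooled, the 4 lowest doses gave no called gene. Of 20450 genes tested, 0 (0%) passed an adjusted p of 0.05 in edgeR's quasi-likelihood test, and the smallest adjusted p was 0.305. At an unadjusted p under 0.05 there were 1253 genes (6.13%), 746 higher and 507 lower in exposed larvae. DESeq2 called 3 genes, 2 higher and 1 lower, and limma on the authors' deposited log2 values called 0. For no gene did the 20 exposed and 10 control larvae form groups without overlap. Leaving out replicates 3 and 5 at 0.00878 mg/L also gave 0. Leaving out replicate 1 at 0.0878 mg/L, or replicate 3 at 0.0277 mg/L, gave 1.

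The test bounded most differences narrowly. Over all tested genes the median log2 fold change was 0.01, its median size was 0.09, and the median 95% interval reached 0.25 to either side on the log2 scale. For 19216 genes (94.0%) the whole interval lay within a 2-fold change in either direction, and for 16422 (80.3%) within 1.5-fold. The bounds depended on expression. CPM is the count per M of library size after TMM scaling. Among the 11595 genes that averaged 10 CPM or more, 99.0% of intervals lay within 2-fold, against 92.1% of the 7470 genes at 1 to 10 CPM and 62.1% of the 1385 genes under 1 CPM. The 100 genes most expressed in controls all had intervals within 2-fold, with log2 fold changes of -0.27 to 0.41. For many genes under 1 CPM the interval did not exclude a 2-fold difference at this depth and spread. The intervals do not show which differences the adjusted test would call. At 10 CPM or more, 13 genes had a fitted difference over 2-fold, and none of these was called.

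**Figure D1:**
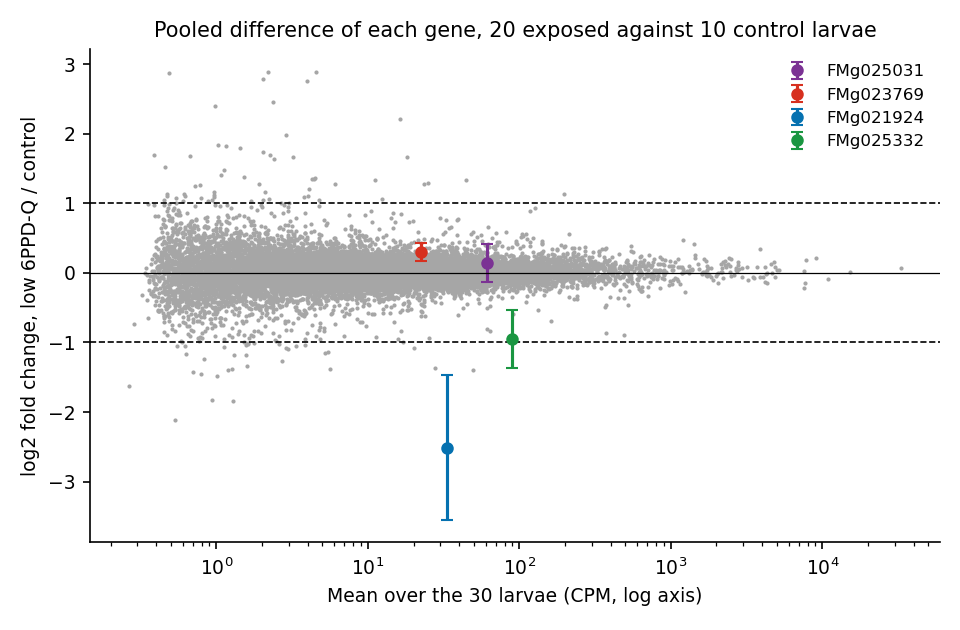
Log2 fold change of each of the 20450 tested genes, 20 larvae at low 6PPD-Q against 10 controls, by mean level over the 30 larvae in CPM on a log axis. Grey points are genes, dashed lines mark 2-fold, and coloured points with 95% intervals are the 4 genes given by identifier. The cloud narrows around 0 as the level rises, and FMg021924 lies far below it.

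Fitted differences over 2-fold were few, and a part of those on the higher side rested on single larvae. They numbered 94, with 59 genes higher and 35 lower, and for 3 the whole 95% interval lay beyond 2-fold. FMg021924, which rested on a pair of high controls as described below, is among these 3. The intervals are not adjusted for the number of genes, and none of these genes passed the adjusted test. In these 94 genes the highest larva held a median of 15.8% of all CPM over the 30 larvae, and in all tested genes 5.06%. On the higher side, 1 larva held more than 25% of the total in 21 of 59 genes (35.6%) and more than 50% in 6. On the lower side these counts were 1 of 35 (2.86%) and 0, and over all tested genes 41 (0.2%) and 6. The highest larva was replicate 5 at 0.0878 mg/L in 11 of them, control replicate 10 in 9, and replicate 4 of the same exposed group in 8. Of the 59 genes on the higher side, 58 peaked in an exposed larva. Of the 35 on the lower side, 32 peaked in a control. Over all 20450 genes 16452 peaked in an exposed larva, and 20 of the 30 larvae were exposed. The choice of genes by fold partly fixes these counts.

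FMg025031 marked the boundary between low and upper doses. It is the gene known from earlier results of these data to rise from 0.277 mg/L of 6PPD-Q upward. In the 10 controls its level ran from 42.2 to 74.9 CPM, with a median of 57.3. The 5 larvae at 0.00277 mg/L had 38.9, 70.2, 62.4, 49.6 and 68.1 CPM. Those at 0.00878 mg/L had 47.2, 59.4, 81.1, 51.2 and 56.0 CPM. The low-dose and control ranges overlapped at both doses, with 1 larva above the highest control and 1 below the lowest. At 0.0277 mg/L the levels were 53.5, 63.4, 98.3, 77.1 and 67.9 CPM. At 0.0878 mg/L they were 43.9, 66.8, 92.6, 85.1 and 36.0 CPM. Of all 20 low-dose larvae, 5 lay above every control and 2 below every control.

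The pooled difference of FMg025031 was 0.14 ± 0.13 on the log2 scale (SE, n = 20 and 10), with a 95% interval of -0.13 to 0.42 and an edgeR adjusted p of 0.931. Its means were 57.4 ± 10.7 CPM in controls and 63.4 ± 17.2 CPM in low-dose larvae (SD). The log2 fold changes at the 4 single doses were 0.01, 0.04, 0.33 and 0.17 in rising order, and the upper ends of their 95% intervals were 0.40, 0.42, 0.71 and 0.55. The interval at 0.0878 mg/L thus ended below 2-fold. At the next dose, 0.277 mg/L, the mean was 412 ± 117 CPM (n = 5), and all 20 larvae of the 4 upper doses lay above every control, the lowest at 86.4 CPM. That larva, at 0.878 mg/L, was below the highest low-dose larva, so the low and upper doses overlapped through this 1 fish. The upper against the lower doses differed by 3.20 ± 0.17 on the log2 scale (edgeR adjusted p = 6.43e-16), a contrast in which the gene was known to differ beforehand. The 15 larvae at the 3 comparable 6PPD doses had a mean of 55.5 ± 10.6 CPM.

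**Figure D2:**
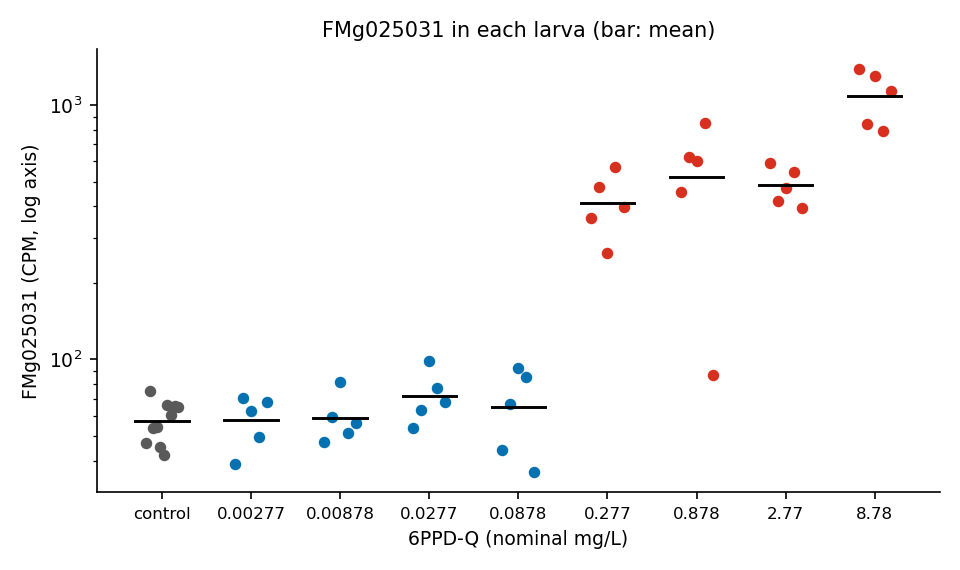
Level of FMg025031 in each control larva and each larva at the 8 doses of 6PPD-Q, in CPM on a log axis, with bars at the group means (grey controls, blue low doses, red upper doses). The 20 blue points lie between 36.0 and 98.3 CPM around the controls, and all red points but 1 lie at 261 CPM or higher.

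Ranked by unadjusted p, FMg023769 came first on the higher side. Its controls were tight, from 17.4 to 21.0 CPM with a median of 19.3. Larvae at 0.00277 mg/L had 20.6, 24.9, 21.4, 22.7 and 22.3 CPM. Those at 0.00878 mg/L had 24.8, 28.0, 21.6, 23.2 and 24.8 CPM. All but 1 of these 10 larvae lay above every control. At 0.0277 mg/L the levels were 23.4, 21.4, 24.3, 21.3 and 18.6 CPM. At 0.0878 mg/L they were 25.5, 25.3, 27.8, 28.6 and 26.9 CPM. In all, 18 of 20 low-dose larvae exceeded the highest control, and the 5 at 0.0878 mg/L had the highest mean of the 4 doses, 26.8 CPM.

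The means of FMg023769 were 19.4 ± 1.10 CPM in controls and 23.9 ± 2.71 CPM in low-dose larvae (SD), a log2 fold change of 0.30 ± 0.06 (SE, 95% interval 0.17 to 0.42, or 1.23-fold). Its edgeR unadjusted p was 3.87e-05 and its adjusted p 0.305, so it did not pass over 20450 genes. Over 47 alternative fits the adjusted p ranged from 0.0431 to 1, and DESeq2 alone placed it under 0.05. At 0.0878 mg/L it was called higher in the fit of 30 larvae, by 0.46 ± 0.07 (adjusted p = 0.0049), and with the controls and that dose alone no gene was called. Larvae of other exposures also lay above the controls: 15 of 20 at the upper 6PPD-Q doses, with a mean of 22.5 CPM, and 21 of 30 at any dose of 6PPD, with a mean of 22.3 CPM. Neither direct test of the gene passed, between upper and lowest 6PPD-Q doses (adjusted p = 0.999) or between 6PPD-Q and 6PPD at matched doses (adjusted p = 0.971).

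FMg021924 came first on the lower side, through a pair of controls. Control replicates 1 and 5 had 273 and 373 CPM, and the other 8 controls had 6.45 to 21.4 CPM. Low-dose larvae had 4.34 to 31.0 CPM, with a median of 11.4 against 14.4 in controls. Apart from the pair of high controls, the ranges overlapped throughout. The fitted log2 fold change was -2.51 ± 0.51 (edgeR adjusted p = 0.305), and without control replicate 5 it was -1.66 (adjusted p = 0.580). On the deposited log2 values, where single high larvae weigh less, limma gave -0.88 (adjusted p = 0.807). Over 47 alternatives the adjusted p ranged from 0.0307 to 1, leaving out DESeq2, which gave none for this gene. The adjusted p was under 0.05 in 1 alternative, the fit of all 80 larvae (-2.55). Like levels were seen in single larvae elsewhere in the series, 423 CPM at 0.0848 mg/L 6PPD and 210 CPM at 2.77 mg/L 6PPD-Q.

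FMg025332, the next on the lower side, split the controls in another way. Of the controls, 5 had 53.0 to 89.4 CPM and 5 had 161 to 256 CPM. Low-dose larvae had 49.3 to 163 CPM with a median of 62.3, and 19 of 20 lay below the control median of 125 CPM. The single larva above it was replicate 1 at 0.0878 mg/L with 163 CPM. The groups overlapped, since the lowest controls were within the exposed range. The pooled log2 fold change was -0.95 ± 0.21 (95% interval -1.37 to -0.53, edgeR adjusted p = 0.305), and over 47 alternatives the adjusted p ranged from 0.0448 to 1. Without that larva it was -1.06, with an adjusted p of 0.0490. The means at 6PPD doses and upper 6PPD-Q doses lay between 61.7 and 122 CPM, so some other exposed groups had low levels and others levels near those of controls.

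**Figure D3:**
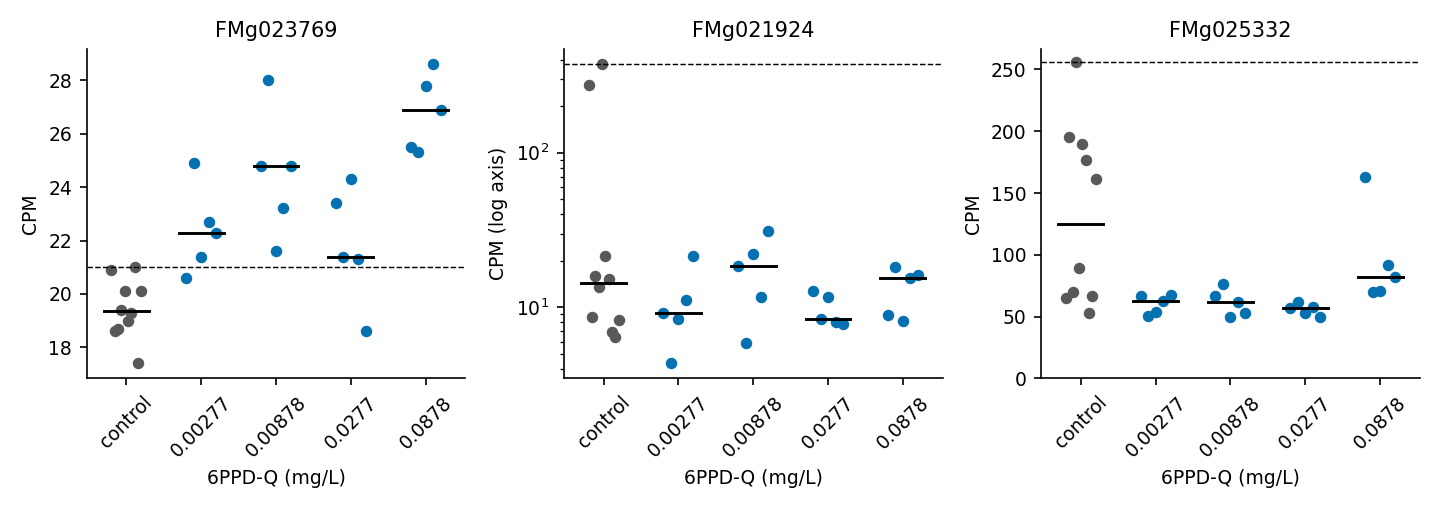
Levels in CPM of the 3 genes ranked first in the pooled comparison, in each of the 30 larvae, by 6PPD-Q dose. Bars are medians, the dashed line is the highest control, and the middle panel has a log axis. For FMg023769, 18 of 20 exposed larvae lie above the line, for FMg021924 the controls at 273 and 373 CPM stand alone, and for FMg025332 the controls spread from 53.0 to 256 CPM.

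The first 10 genes of each side differed in size and spread. On the higher side the log2 fold changes were 0.24 to 0.52 (median 0.36), with adjusted p from 0.305 to 0.453, and 6 to 18 of the 20 exposed larvae lay above the highest control. On the lower side the sizes were 0.29 to 2.51 (median 0.71), with adjusted p from 0.305 to 0.619, and 2 to 17 exposed larvae lay below the lowest control. These genes were ranked by p in this same comparison, which partly fixes such counts. None of the 20 passed the test.

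Taken singly, 2 of the 4 doses had called genes. At 0.00277 mg/L the count was 0 of 20450 (0%), with a smallest adjusted p of 0.158, 602 genes (2.94%) at an unadjusted p under 0.05, and 5 genes called by DESeq2. At 0.0277 mg/L it was also 0 (0%), with a smallest adjusted p of 0.458, 933 genes (4.56%) at an unadjusted p under 0.05, and 1 gene called by DESeq2. At 0.00878 mg/L edgeR called 2 genes (0.00978%) and at 0.0878 mg/L 10 genes (0.0489%), with 1935 (9.46%) and 2027 (9.91%) at an unadjusted p under 0.05. By DESeq2 the counts at these doses were 36 and 28, and an edgeR fit of the controls and 1 dose alone called 0 at each. The 4 doses were set against the same 10 controls.

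At 0.00878 mg/L 1 gene was lower and 1 higher. The lower gene had 2.44, 2.53, 1.60, 1.75 and 1.24 CPM in the 5 larvae and 2.98 to 6.50 CPM in the controls (median 4.85). Its log2 fold change was -1.30 ± 0.22 (edgeR adjusted p = 0.0325). The groups did not overlap, in a gene chosen by p on these same larvae. The share of all tested genes that separate in this way was not counted. The higher gene had 37.1, 26.7, 49.3, 41.0 and 41.7 CPM, and the controls had 17.1 to 31.3 CPM. Of the 5 larvae, 4 exceeded every control, and the log2 fold change was 0.76 ± 0.13 (adjusted p = 0.0325). Neither was called at the other low doses, where adjusted p was 0.566 or higher. The lower gene had a control mean of 4.69 CPM, and its means at those doses were also lower, from 3.29 to 3.71 CPM. It averaged 3.52 CPM at the upper 6PPD-Q doses and 3.24 CPM over all 6PPD doses. For the higher gene these means were 24.8 and 22.4 CPM, against 23.1 CPM in controls. Both calls were lost without any one of control replicates 2, 3, 7 and 9 or of exposed replicates 3, 4 and 5. The count was 1 without control replicate 5, 6 or 10 or exposed replicate 1. Without exposed replicate 2 it was 64, and without replicates 3 and 5 together it was 0.

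At 0.0878 mg/L 10 genes rose and 0 fell in the fit of 30 larvae. The count was 3 without the plate A controls and 0 with the controls and this dose alone. Most of the 10 calls depended on 1 larva. Replicate 5 was the highest of the dose in 7 of the 10 and replicate 4 in 3. The 10 genes are numbered here in order of p. In genes 2, 4, 5, 6, 7, 8 and 10 replicate 5 held 55.7% to 93.4% of the dose's summed CPM. Gene 5 had 17.5, 26.7, 23.7, 60.3 and 600 CPM in the 5 larvae, where no control passed 31.6 CPM. Gene 8 had 0.108, 0.666, 0.693, 2.18 and 51.7 CPM, with controls up to 1.11 CPM. In both genes replicates 4 and 5 lay above every control and replicates 1 to 3 did not. In genes 2, 4 and 7, 3 of the 5 larvae lay above every control. In gene 6 there were 4 such larvae and in gene 10 there was 1.

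Gene 1 followed another set of larvae. It had 29.7, 30.7, 0.520, 43.4 and 0.451 CPM, high in replicates 1, 2 and 4 and within the control range of 0.138 to 2.92 CPM in replicates 3 and 5. Its log2 fold change was 4.67 ± 0.68 (edgeR adjusted p = 0.00282), and 3 of the 50 larvae outside the 30 exceeded the highest control. For genes 2 to 10 the same count was 26, 36, 19, 9, 14, 15, 11, 17 and 6 of 50, in order. Genes 3 and 9 rose with less scatter. Gene 3 is FMg023769, described above. Gene 9 had 8.81, 14.4, 10.3, 17.1 and 15.9 CPM against 4.24 to 9.5 CPM in controls, so 4 of 5 larvae lay above every control (log2 fold change 0.91 ± 0.17, adjusted p = 0.0276).

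Without replicate 5 the dose kept 2 of its 10 calls and gained 1, for a count of 3. Without control replicate 4 it was 6, without replicate 3 of the dose 17, and without replicate 1 of the dose 50. Larvae of other groups also exceeded all controls in several of these 10 genes: 0 to 4 genes in a larva at the 3 lower doses, 4 to 8 at 8.78 mg/L 6PPD-Q and up to 9 in a 6PPD larva. The genes were chosen at 0.0878 mg/L, where a larva exceeded all controls in 2 to 9 of them.

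**Figure D4:**
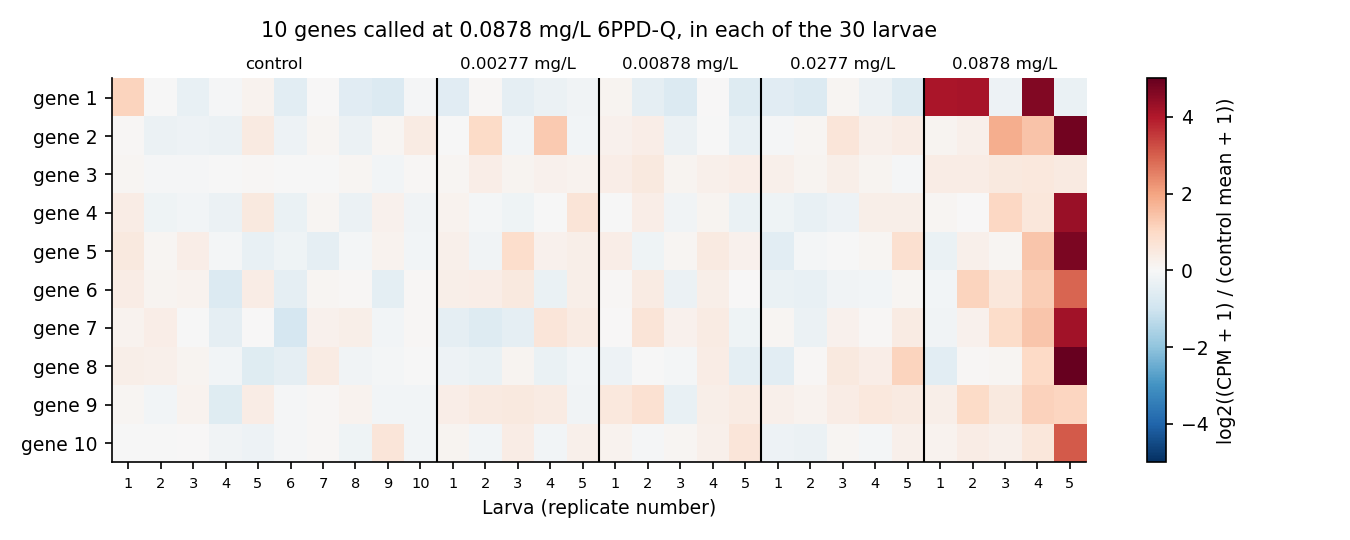
Level of the 10 genes called at 0.0878 mg/L 6PPD-Q in each of the 30 larvae, as log2((CPM + 1) / (control mean + 1)) on a colour scale from -5 to 5. Rows are genes in order of p, columns are larvae by group and replicate number, and lines separate groups. The last column, replicate 5 at 0.0878 mg/L, carries the high values of genes 2, 4, 5, 6, 7, 8 and 10, and replicates 1, 2 and 4 carry gene 1.

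The low doses could also be tested against each other, to see whether larvae pooled here differed by dose. edgeR called 4 genes (0.0196% of 20450) in a test of any difference among the 4 doses, with 1488 (7.28%) at an unadjusted p under 0.05. Genes 1, 2 and 4 of the 0.0878 mg/L list were 3 of them, with gene 1 at an adjusted p of 0.00024. The remaining gene had 10.3, 6.71, 0.462, 14.6 and 0.301 CPM at 0.0878 mg/L. It was high in replicates 1, 2 and 4, the larvae in which gene 1 was also high. Its highest control was replicate 1 with 7.18 CPM, also the control highest for gene 1 with 2.92 CPM. Without 1 larva at a time, the count of genes called among the doses ran from 1 to 30. It was 1 without replicates 3 and 5 at 0.00878 mg/L.

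A slope over dose level, from controls to the 4th dose, was called for 3 genes (0.0147%), all rising, with 1649 (8.06%) at an unadjusted p under 0.05. They were genes 1, 2 and 8 of the 0.0878 mg/L list, with slopes of 1.11, 0.98 and 1.01 on the log2 scale per dose level (edgeR adjusted p = 0.0304 for each). None rose evenly. Gene 1 was at 2.92 CPM or lower in all controls and all 15 larvae of the 3 lower doses. The slope of FMg023769 was 0.10 per level (adjusted p = 0.0558), and that of FMg025031 was 0.07 (adjusted p = 0.673). Over the 20 exposed larvae alone, a slope on log10 dose was called for 0 genes. Leaving out control replicate 4, 6, 8 or 9, or replicate 1, 3 or 5 at 0.00277 mg/L, also gave 0, and the highest count was 17, without replicate 1 at 0.0878 mg/L.

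A measure over many genes at once had a higher mean in the pooled group than in controls, with overlap between the groups and like means in the upper plate rows. For each larva the absolute log2 difference from the mean of 9 controls was taken for every gene averaging 1 CPM or more, and the median over genes is called its distance from the control profile. A control left itself out, and an exposed larva was averaged over the 10 sets of 9 controls. The distance rises with scatter between larvae as well as with a shared shift from the controls, and these were not told apart. The biological coefficient of variation was also higher at every low dose than in controls. Controls had distances of 0.131 to 0.200 (median 0.153) and low-dose larvae 0.157 to 0.327 (median 0.187). Of the 20 exposed larvae, 8 lay beyond the farthest control, while the other 12 were within the control range.

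The mean distance was 0.162 ± 0.0237 in controls and 0.208 ± 0.0491 in low-dose larvae (SD), a difference of 0.046. A two-sided permutation test of the 30 larvae gave p = 0.00806 (adjusted p = 0.0202 over 7 such comparisons). In all tests of distance the values were shuffled as first computed, and the control profile was not rebuilt at each draw. All distances share the same controls as reference, so they are not fully independent. The means at the 4 doses were 0.182, 0.240, 0.187 and 0.221 in rising order, with exact two-sided permutation p of 0.110, 0.00333, 0.145 and 0.00866 (0.145, 0.0133, 0.145 and 0.0173 adjusted over the 4). The distance did not rise in order of dose. The farthest larvae were 2 at 0.00878 mg/L, replicates 3 (0.327) and 5 (0.273), with replicate 3 at 0.0878 mg/L (0.278) between them. Without replicates 3 and 5 at 0.00878 mg/L the difference was 0.0358 (permutation p = 0.0124).

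Well position moved with the groups. As the well codes of the labels are read here, 16 of the 20 exposed larvae but 4 of the 10 controls sat in rows 5 to 8. Rows were counted without regard to plate. The exposed larvae were all on plate C, but control replicate 1 (row 1) and control replicate 2 (row 6) were on plate A. The comparison by rows within plate C alone was not tested. In rows 1 to 4 the mean distance was 0.172 in 4 exposed larvae and 0.172 in 6 controls (exact permutation p = 0.933). In rows 5 to 8 it was 0.217 in 16 exposed larvae and 0.146 in 4 controls (exact permutation p = 0.0122, adjusted p = 0.0244 over both parts). Few exposed larvae sat in the upper rows, and the parts of well position and plate were not separated from that of exposure. Among the 20 exposed larvae, distance had a Pearson r of 0.292 with row (permutation p = 0.212, Spearman rho 0.227, p = 0.335). Without 2 of the larvae farthest from the median row, r was 0.132. Replicate 1 at 0.00878, 0.0277 and 0.0878 mg/L tied as farthest, each in row 2, so the choice of 2 was arbitrary. With counts in genes r was 0.0895 (p = 0.708, rho -0.0346, p = 0.885), and 0.0114 without the 2 farthest.

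For the number of genes detected r was -0.476 (permutation p = 0.0344, adjusted p = 0.138 over 4 relations), rho was -0.208 (p = 0.380), and r without the 2 farthest larvae was -0.286. For the share of reads outside genes r was -0.0267 (permutation p = 0.911) and rho 0.195 (p = 0.408). Without the 2 larvae farthest from the median share, r for that share was 0.617. These are replicates 3 and 5 at 0.00878 mg/L, which had low shares and large distances. The part of RNA or library quality in the distances was not tested.

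**Figure D5:**
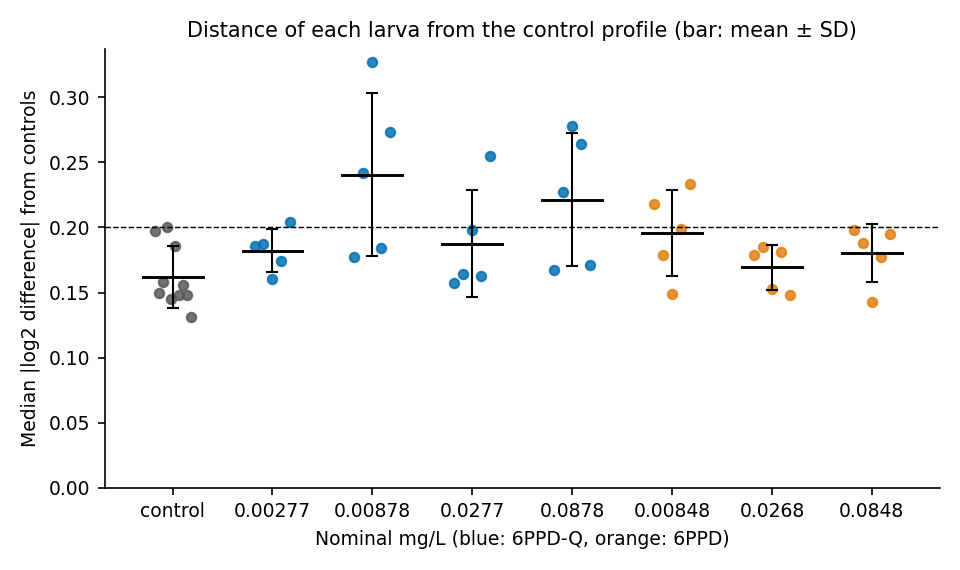
Distance from the control profile of each control larva, each larva at the 4 lowest 6PPD-Q doses (blue) and each larva at the 3 comparable 6PPD doses (orange), with means ± SD; the dashed line is the farthest control at 0.200. Of the 20 blue points 8 lie above the line, 3 of them at 0.00878 mg/L and 3 at 0.0878 mg/L.

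The parent chemical at matched doses gave a comparison that used no controls. In the 3 pairs the nominal dose of 6PPD-Q was higher by 3.57%, 3.31% and 3.57%. Over 15 larvae of each chemical, edgeR called 0 of 21082 genes (0%) for the mean difference, with a smallest adjusted p of 0.971 and 887 genes (4.21%) at an unadjusted p under 0.05, 564 of them higher with 6PPD-Q. DESeq2 also called 0. For FMg025031 the difference was 0.23 ± 0.13 (95% interval -0.03 to 0.48). For FMg023769 it was 0.18 ± 0.06, and its unadjusted 95% interval of 0.06 to 0.29 lay above 0. Both had an edgeR adjusted p of 0.971. The distance from controls averaged 0.216 with 6PPD-Q and 0.182 with 6PPD (permutation p = 0.0316, adjusted p = 0.0554 over the 7 comparisons), a difference that did not pass after adjustment. Of these larvae, 12 of 15 with 6PPD-Q but 6 of 15 with 6PPD sat in rows 5 to 8. The part of well position in this difference was not tested.

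The 4 upper doses of 6PPD-Q against the 4 lowest, again without controls, gave 27 called genes (0.127% of 21261), 26 higher and 1 lower at the upper doses, and 727 (3.42%) at an unadjusted p under 0.05. FMg025031 had the smallest p of these. The distance from controls did not follow: it averaged 0.198 at the upper and 0.208 at the lowest doses (permutation p = 0.585). FMg023769 differed by -0.08 between upper and lowest doses (adjusted p = 0.999). Without the 2 upper-dose larvae that the deposited log2 table leaves out, the count of called genes was 12. Leaving out 1 larva at a time gave 12 to 29, with the lowest count without replicate 1 at 2.77 mg/L.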

How the data were processed

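Libraries of single whole larvae were prepared with Lexogen's SENSE mRNA-seq chemistry, as the labels' protocols state. Reads were trimmed, aligned and counted by the authors; STAR 2.7.10a, HTSeq 0.13.5 and Trim Galore 0.6.6 are among the tools in the submitters' processing notes. The build, the annotation and whether strand was used in counting is not given in the sources used here. Raw counts per gene were deposited by the authors for 26150 genes and 80 libraries. Another 5 lines name no gene and were left out of library sizes and tests. The reads outside genes among them came to between 7.73% and 13.5% of a library. The authors also deposited log2 values (TMM-normalized CPM plus 1), used here for an alternative only.

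The 30 larvae were compared by the quasi-likelihood F test of edgeR 4.0.16 (R 4.3.3) after TMM scaling and filterByExpr, with Benjamini-Hochberg adjustment over all tested genes and a threshold of 0.05. The SE was the size of the log2 fold change divided by the square root of F. Intervals built from it were not adjusted for the number of genes. The pooled contrast had 2 groups. Single doses, differences among doses and the slope were fitted on the same 20450 genes. Matched 6PPD and upper-dose contrasts were fitted on their own larvae. DESeq2 1.42.0 and limma 3.58.1 served as alternatives. Scripts were tested on simulated counts. Permutation tests used 100000 draws, or all arrangements for exact tests. Depth was 16.2 to 27.4 M counts per library (M, 10 to the power of 6).

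Identifiers are printed for FMg025031 and for the first further gene on the higher and the first 2 on the lower side of the pooled contrast, by p, among genes of at least 1 CPM. The members, genes and tests were chosen with earlier results of these data known. The distance from controls was added after the counts were seen. The 85 pairs of libraries within a group differed by more than sampling noise (chi-square per degree of freedom at least 16.5), so each larva counts once. p-values measure the spread between larvae of 1 experiment.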

Additional observations from a re-analysis of the deposited data

Results flagged for a closer look

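Single larvae stood far from the rest of their group in 11 of 47 groups of values examined. The 10 genes called at 0.0878 mg/L were chosen on these larvae, so the groups are not independent. That choice partly fixed the count, which therefore cannot be set against a chance rate. In 7 of those genes the larva was replicate 5 at 0.0878 mg/L, with 38.4 CPM in gene 2, 34.3 CPM in gene 4, 600 CPM in gene 5, 23.2 CPM in gene 6, 35.7 CPM in gene 7, 51.7 CPM in gene 8 and 9.67 CPM in gene 10. FMg025332 at 163 CPM in replicate 1 of the same dose was another. Among controls, replicate 1 stood apart in gene 1 at 2.92 CPM, replicate 9 in gene 10 at 0.921 CPM, and replicate 4 in the gene called higher at 0.00878 mg/L, at 31.3 CPM.

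Groups of doses differed by a direct test in 4 genes among the 4 lowest doses (0.0196% of 20450 genes). Between the 4 upper and the 4 lowest doses of 6PPD-Q it was 27 genes (0.127% of 21261), among them FMg025031, known beforehand to differ. Without 1 larva at a time these counts ran from 1 to 30 and from 12 to 29.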

How the results depend on the processing

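The pooled count stayed at 0 with RLE factors, a minimum of 1 CPM, limma, 5 groups in the fit, well row, plate rim or reads outside genes as covariate, without plate A controls and without any 1 dose. It was 1 with no filter on low counts, 3 with DESeq2, 2 in a fit of all 80 larvae, and 0 to 1 without 1 larva at a time (1 without replicate 1 at 0.0878 or replicate 3 at 0.0277 mg/L). In rising order of dose, DESeq2 called 5, 36, 1 and 28 genes at the single doses, and 9 for the slope. The fit of all 80 larvae called 1 gene at 0.00277, 8 at 0.00878 and 22 at 0.0878 mg/L. With the controls and 1 dose alone, 0 were called at 0.00878 and 0 at 0.0878 mg/L. Without plate A controls these were 0 and 3, and the slope gave 1. With no filter the slope gave 17. On log10 dose, over the 20 exposed larvae alone and with the filter kept, it gave 0. Without replicates 4 and 5, 0.0878 mg/L gave 1. Without replicates 3 and 5 at 0.00878 mg/L, that dose gave 0, differences among doses 1 and the slope 5. Leaving out 1 larva at a time, counts ran 0 to 1, 0 to 64, 0 to 0 and 3 to 50 at the 4 doses, 1 to 30 among doses, 0 to 17 for the slope, 0 to 0 against 6PPD and 12 to 29 for upper against lowest doses, which without 2 larvae gave 12. The difference in distance was 0.0397 to 0.0508 without 1 larva at a time, and 0.0323 to 0.0545 under the other alternatives, with permutation p of 0.0195 or lower in all of these. None of these alternatives took well row or reads outside genes into account. Split by row, the difference was -0.000491 in rows 1 to 4 (exact permutation p = 0.933) and 0.0706 in rows 5 to 8 (p = 0.0122). The causes were not tested.

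With the replicate block, over controls 1 to 5, 0 genes were called pooled, at 0.00878 and at 0.0878 mg/L. Among doses the block was fitted on the 20 exposed larvae alone, and 0 were called. Same-numbered larvae of different groups had a median r of -0.000258 over 50 pairs, against -0.003 for pairs of unlike number. Of the 50 pairs, 17 were over 0.1, a share not counted for the other pairs. Of 25 larvae, 6 correlated best with their own number. The number was therefore not taken to pair larvae. Within each group the number runs in order of plate, well row and well column, so the replicate block followed well order. At all 4 low doses replicate 2 sat in row 5 and replicate 5 in row 8. Control replicates 2 and 5 sat in rows 6 and 3, so the same number did not mean the same row. Covariates for reads outside genes, the distance alternatives and the paired omissions were chosen after seeing the data.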
